A study of Mus musculus with 6 samples.

Results

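Cathepsins are proteases of the lysosome, where most of them cut proteins at acid pH, and cystatins are small proteins that block the cysteine cathepsins. Tumour cells can also release cathepsins, which cut extracellular matrix proteins, so the supply of inhibitor outside the cell is often studied together with that of the proteases. Cystatin C (Cst3) and cystatin E/M (Cst6) are secreted, whereas stefin B (Cstb) stays mostly inside the cell. The 10 genes described here are these 3 cystatins, the cysteine cathepsins Ctsb, Ctsc, Ctsl, Ctss and Ctsz, the aspartic cathepsin Ctsd and the serine carboxypeptidase Ctsa, out of 43548 genes in the deposited table. They were chosen by the decrease of Cst3, which was among the largest of the series, and the rest were added to set inhibitors beside proteases. The values of the 10 genes with and without doxycycline (Dox) are therefore given as a description, with no test.

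The Met-1 line grew out of an advanced mammary carcinoma of an FVB/nJ mouse with the MMTV-PyMT transgene, in which the MMTV promoter drives the polyoma middle T oncogene. All 6 libraries came from Met-1 TripZ-200c cells, 1 clone with a lentiviral pTripZ-RFP vector that makes the precursor of miR-200c when Dox is present, sorted for no RFP without Dox and for intermediate RFP with Dox. MinusDox cells (n = 3) received vehicle (water) and PlusDox cells (n = 3) received 1 µg/mL Dox, each for 48 h. Libraries of an empty vector with Dox were not analysed here, so Dox itself and induction of miR-200c cannot be told apart. The replicates are numbered samples of 1 clone, and the labels do not say whether they came from separate experiments. The p-values measure only the spread between those samples. The study's methods give 48 h, while a figure legend ties the sequenced samples to a panel with a longer treatment. Expression was given as FPKM, the fragments on a transcript scaled to transcript length and to the number of mapped reads.

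The label check and the depth are given for the whole series in brief. The Mir200c gene was listed at 0 in all 6 libraries, and the vector transcript was not analysed here. Zeb2, a known target of miR-200c, was at 27.9 to 30.7 FPKM without Dox and at 7.82 to 9.04 FPKM with Dox. Cdh1, which encodes E-cadherin, was at 0.0419 to 0.0776 FPKM without Dox and at 0.554 to 1.24 FPKM with Dox. The smallest FPKM values come in steps of 1 read, and by the size of these steps the libraries held about 10810000 to 17390000 mapped reads. The 15 leukocyte markers checked, since Cst3 and Ctss are abundant in macrophages, summed to 37.8 to 46.6 FPKM without Dox and 43.4 to 47.9 FPKM with Dox. Emr1, Tyrobp and Cd3e of that list were at 0 in all 6 libraries and Ptprc, the pan-leukocyte antigen, stayed at 0.161 FPKM or lower, while Cd14, Cd68, S100a8 and Lyz2 had means of at least 1 FPKM. Of these 4, Cd14 had the higher mean with Dox (21.4 ± 1.42 and 29.1 ± 2.73 FPKM without and with Dox, SD, n = 3 each), and its groups did not overlap. The other three had lower means with Dox and groups that overlapped, with log2 differences of -0.35 for Cd68 (standard error 0.208), -0.44 for S100a8 (standard error 0.194) and -0.56 for Lyz2 (standard error 0.380). The part of these markers in the values given here was not tested. In bulk RNA, fewer cells of a type and less RNA per cell cannot be told apart.

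The small RNA induced by the vector is shown first, since its seed decides which transcripts it can pair with. Capitals mark the seed, bases 2 to 8, in the mature strand from RefSeq (GRCm38.p6, chr6:124718324-124718346, minus strand), which miR-200b and miR-429 share.
mmu-miR-200c-3p: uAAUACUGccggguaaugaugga
The 7 bases that pair with this seed, CAGTATT, were searched on the transcript strand of the longest annotated 3′ UTR of each gene (GENCODE M21, GRCm38). None of the 10 cathepsin and cystatin genes held them, and none held the 6 bases AGTATT either. Among all tested genes with an annotated 3′ UTR, 1723 of 10783 held the 7 bases (16.0%), and Zeb1 and Zeb2 held 5 copies each. The UTRs searched ranged from 183 bases for Cstb and 238 bases for Cst3 to 4761 bases for Ctsl, beside a median of 1191 bases over the tested genes. The absence of these letters says nothing of other sites or of indirect routes.

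The 10 genes spanned levels from none to the highest for Ctsd. Without Dox the order by mean was Ctsd (490.4 FPKM), Cstb (319 FPKM), Ctsl (281 FPKM), Ctsb (233 FPKM), Ctsz (222 FPKM), Ctsa (165 FPKM), Ctsc (18.1 FPKM), Cst6 (7.03 FPKM), Cst3 (5.02 FPKM) and Ctss (0). FPKM is per transcript length, so these levels can be set side by side, although they depend on the transcript length that Cufflinks used. Neighbours in this order did not overlap between libraries except Cst6 and Cst3. With Dox the order was the same apart from Ctsb and Ctsz, which changed places, and no neighbours among the 9 genes above Ctss overlapped.

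**Figure D1:**
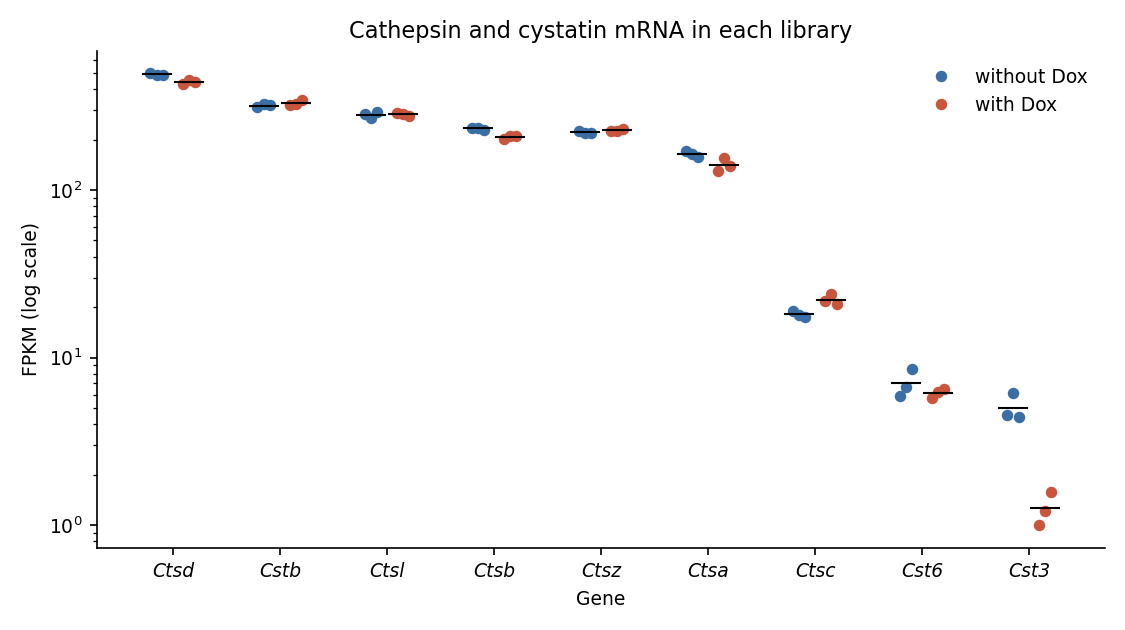
FPKM of 9 cathepsin and cystatin genes in each library (log axis), without Dox in blue and with Dox in red, with black lines at the group means. Ctss, listed at 0 in 5 of 6 libraries, is left out; the red points of Cst3, at 0.996 to 1.57 FPKM, lie below its blue points, at 4.39 to 6.12 FPKM.

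Cst3 (ENSMUSG00000027447, chromosome 2, 148871722 to 148875692 on GRCm38), which encodes the secreted inhibitor cystatin C, had the largest difference of the 10 genes. Its FPKM was 4.55, 6.12 and 4.39 without Dox and 0.996, 1.21 and 1.57 with Dox. Every library with Dox was below every library without, and the means were 5.02 ± 0.956 and 1.26 ± 0.291 FPKM (SD, n = 3 each), 3.99-fold lower with Dox. On the scale of log2(FPKM + 0.1), which understates differences of genes with low FPKM, the difference was -1.92 (standard error 0.232). With a pseudocount of 1 in place of 0.1 it was -1.41. These values rest on few reads, about 47 to 57 in each library without Dox and 10 to 18 with Dox for a transcript of 860 bases. No stretch of at least 50 bases in this transcript matched another gene at 95% identity.

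The genes whose pattern across the 6 libraries was most like that of Cst3 were Zeb2, Slc6a2 and Adamts8. Likeness was the root mean square distance between log2(FPKM + 0.1) values centred on each gene's mean, which was 0.260 for Zeb2, 0.273 for Slc6a2 and 0.302 for Adamts8. Slc6a2, which encodes the noradrenaline transporter, went from 8.26 ± 0.0612 to 2.20 ± 0.138 FPKM (SD, n = 3 each). Adamts8, which encodes a secreted metalloprotease, went from 2.53 ± 0.239 to 0.437 ± 0.164 FPKM (SD, n = 3 each). These 3 genes were picked by their likeness, so their values are a description. The 3 distances lie near one another and the Cst3 values with Dox rest on few reads, so nothing is read from the order.

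The other cystatins did not separate the groups. Cstb (ENSMUSG00000005054, chromosome 10, 78425669 to 78427622), the intracellular inhibitor, measured 313.5, 324.4 and 320.2 FPKM in the MinusDox libraries against 322.3, 325.4 and 345.9 FPKM in the PlusDox libraries. The groups overlapped, and the difference on the log2 scale was 0.052 (standard error 0.0354). Cst6 (ENSMUSG00000024846, chromosome 19, 5344705 to 5349574), the secreted inhibitor of legumain and cathepsin L, measured 5.87, 6.70 and 8.53 FPKM in the MinusDox libraries against 5.77, 6.20 and 6.48 FPKM in the PlusDox libraries. Its groups overlapped too, with a log2 difference of -0.18 (standard error 0.149) and the widest spread in the MinusDox libraries. Within each library, the FPKM of Cst3 was 0.514 to 0.913 times that of Cst6 without Dox and 0.173 to 0.243 times with Dox.

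Among the cysteine cathepsins, Ctsb and Ctsc lay on opposite sides. Ctsb (ENSMUSG00000021939, chromosome 14, 63122462 to 63145923), an endopeptidase that also trims dipeptides from protein ends, measured 235.6, 235.2 and 229.3 FPKM in the MinusDox libraries against 200.7, 211.7 and 209.6 FPKM in the PlusDox libraries. The groups did not overlap, and the means were 233 ± 3.53 and 207 ± 5.87 FPKM (SD, n = 3 each), a log2 difference of -0.17 (standard error 0.0327). Ctsc (ENSMUSG00000030560, chromosome 7, 88278085 to 88310888), the dipeptidyl peptidase that activates granule serine proteases, measured 18.9, 17.9 and 17.4 FPKM in the MinusDox libraries against 21.9, 24.0 and 20.7 FPKM in the PlusDox libraries. It was the 1 gene of the 10 with all libraries higher with Dox, and its mean was 22.8% higher (18.1 ± 0.780 and 22.2 ± 1.65 FPKM, SD, n = 3 each, log2 difference 0.29, standard error 0.0729). Part of the longest Ctsb transcript, 16.3% of its bases, is shared with Fdft1 when both strands are searched. The strand of the match was not examined, so whether reads there could belong to either gene is not known.

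Ctsl and Ctsz had the smallest fitted differences of the 9 genes. Ctsl (ENSMUSG00000021477, chromosome 13, 64359337 to 64370890), a broad lysosomal endopeptidase, measured 283.5, 269.2 and 291.4 FPKM in the MinusDox libraries against 287.7, 284.3 and 278.4 FPKM in the PlusDox libraries. The libraries with Dox lay within the range of those without, and the log2 difference was 0.011 (standard error 0.0366). Ctsz (ENSMUSG00000016256, chromosome 2, 174427493 to 174439039), a carboxypeptidase, measured 225.7, 219.1 and 220.0 FPKM in the MinusDox libraries against 224.7, 226.7 and 230.6 FPKM in the PlusDox libraries, with a log2 difference of 0.037 (standard error 0.0287). Its groups overlapped by 1 pair of libraries. The FPKM of Ctsb relative to Ctsz in the same library was 1.04 to 1.07 without Dox and 0.893 to 0.934 with Dox, so that Ctsb was above Ctsz in every library without Dox and below it in every library with Dox. Of the longest Ctsl transcript, 28.6% is shared with Gm47123 when both strands are searched, and the strand of this match was not examined either.

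Ctss (ENSMUSG00000038642, chromosome 3, 95526786 to 95556403), the endopeptidase with which antigen-presenting cells process the invariant chain, was listed at 0 in all libraries without Dox. With Dox it was at 0.206 FPKM in the first library, about 3 reads, and at 0 in the other two. It was below the minimum of 1 FPKM for fitting, so it has no fitted difference, and at this depth it was not detectable in the MinusDox libraries.

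The aspartic and the serine cathepsin were both lower with Dox. Ctsd (ENSMUSG00000007891, chromosome 7, 142375911 to 142388038), the main aspartic protease of lysosomes, measured 497.9, 488.7 and 484.7 FPKM in the MinusDox libraries against 428.3, 456.4 and 443.5 FPKM in the PlusDox libraries. The groups did not overlap, with means of 490.4 ± 6.75 and 443 ± 14.0 FPKM (SD, n = 3 each) and a log2 difference of -0.15 (standard error 0.0311). Ctsa (ENSMUSG00000017760, chromosome 2, 164832873 to 164841032), which also shields β-galactosidase and neuraminidase in the lysosome, measured 171.3, 164.7 and 157.7 FPKM in the MinusDox libraries against 130.0, 155.0 and 139.0 FPKM in the PlusDox libraries. Its groups came close without overlapping, with means of 165 ± 6.82 and 141 ± 12.6 FPKM (SD, n = 3 each) and a log2 difference of -0.22 (standard error 0.0671). Parts of their longest transcripts are shared with other gene models, 38% of Ctsd with Gm49369 and 12.6% of Ctsa with Pltp. Both strands were searched and the strand of these matches was not examined, so whether reads there could belong to either gene is not known. The genes most like Ctsd across the 6 libraries were Map3k2, Pgam1 and Ctsb itself, at distances of 0.0134, 0.0146 and 0.0161 on the log2 scale.

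**Figure D2:**
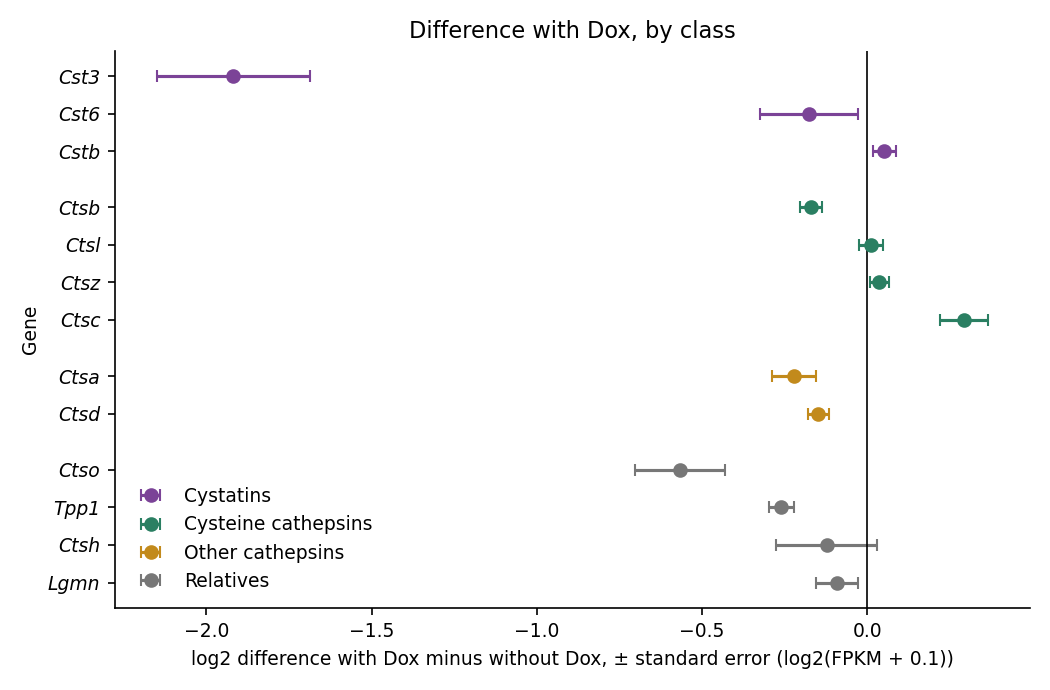
Difference with Dox minus without Dox on the scale of log2(FPKM + 0.1), with its standard error as bars (n = 3 libraries per group), for 9 of the genes described and 4 relatives. Cst3 lies far to the left at -1.92, Ctsc to the right at 0.29, and the other members lie between -0.22 and 0.052.

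With a minimum mean of 1 FPKM, limma passed 1935 of 12879 at an adjusted p under 0.05 (15.0%), with 7.06% higher and 7.97% lower with Dox. Of the 9 cathepsin and cystatin genes above that minimum, 3 passed as lower and 1 as higher, and 5 had groups that did not overlap, beside 35.0% of the tested genes. Because the genes were chosen on this contrast, nothing is read from these counts.

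Inhibitor and protease mRNA were also summed within each library. The 3 cystatins together came to 0.424, 0.455 and 0.439 times the FPKM sum of the 5 cysteine cathepsins without Dox and to 0.448, 0.446 and 0.479 times with Dox. These ratios overlapped, with means of 0.439 ± 0.0154 and 0.457 ± 0.0185 (SD, n = 3 each), a mean with Dox 1.04 times that without. The overlap rests on MinusDox replicate 2, without which the groups did not overlap and the mean with Dox was 1.06 times that without. Cstb alone made up 96.1% to 97.9% of the cystatin sum in every library, so the sum says little of the secreted inhibitors. For Cst3 and Cst6 alone the ratio was 0.0136, 0.0173 and 0.0170 without Dox and 0.00920, 0.00992 and 0.0109 with Dox. These did not overlap, and the mean with Dox was 0.626 times the mean without. Cst3, chosen by its decrease, is part of this ratio, and the groups of Cst6 overlapped, so the separation restates that choice. The sum of the 5 cysteine cathepsins itself was 754 ± 11.6 FPKM without Dox and 740.4 ± 5.82 FPKM with Dox (SD, n = 3 each). mRNA ratios do not measure protein or enzyme activity.

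**Figure D3:**
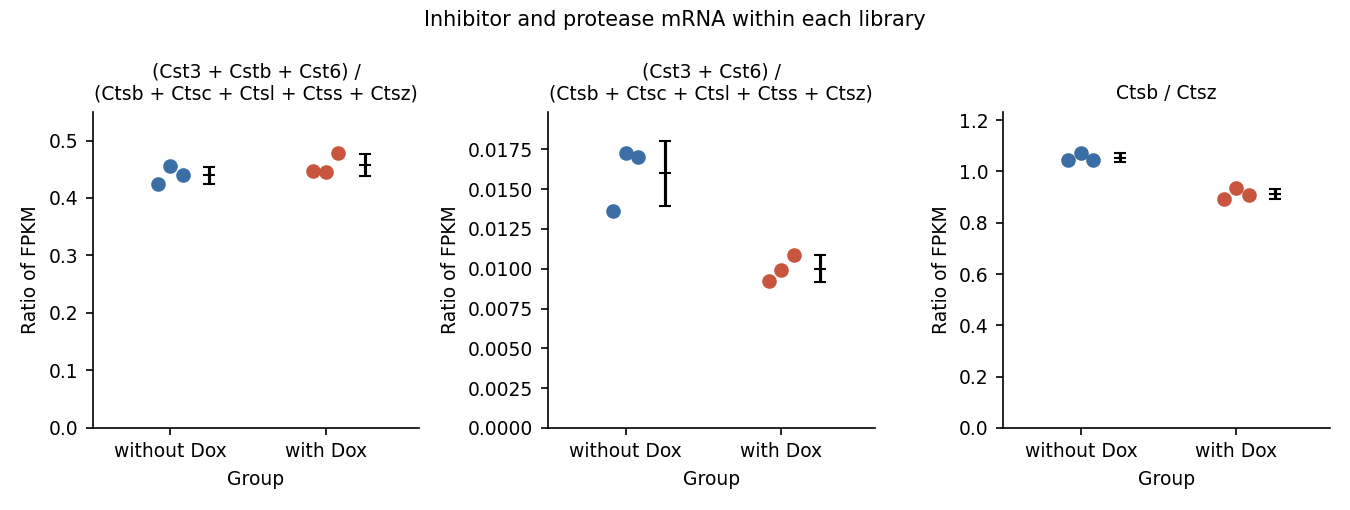
Ratios of FPKM within each library, without Dox in blue and with Dox in red, with the mean and SD in black (n = 3) and axes from 0. The ratio of all 3 cystatins to the cysteine cathepsins overlaps between groups (0.424 to 0.455 and 0.446 to 0.479). That of Cst3 and Cst6 (0.0136 to 0.0173 and 0.00920 to 0.0109) and that of Ctsb to Ctsz (1.04 to 1.07 and 0.893 to 0.934) do not. Cst3 was chosen by its decrease, so the ratio that holds it with Cst6 restates that choice.

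Genes outside the 10 were tested to place them among their relatives. Of 34 other cathepsins, cystatins and related lysosomal proteases on a list, 33 were in the table. Of these, 18 were listed at 0 in all libraries, and only Ctsh, Ctso, Lgmn and Tpp1 reached a mean of 1 FPKM. Of the 4 tested, 2 passed as lower, beside 7.97% lower over all genes tested. With so few genes tested, nothing is read from this share. Tpp1, a tripeptidyl peptidase, fell from 72.1 ± 1.16 to 60.2 ± 1.40 FPKM (SD, n = 3 each), a log2 fold change of -0.26 ± 0.0385 (SE), for which limma gave an adjusted p = 0.00565, and it passed in all 14 alternatives. Ctso, a cysteine cathepsin, fell from 3.96 ± 0.125 to 2.64 ± 0.159 FPKM (SD, n = 3 each), a log2 fold change of -0.57 ± 0.136 (SE), for which limma gave an adjusted p = 0.0338. The limma adjusted p of Ctso was 0.094 in the fit with the replicate block, and it did not pass in 8 of 13 alternatives, among them each of those that left out a library. Ctsh, an aminopeptidase, and Lgmn, the asparaginyl endopeptidase, had adjusted p-values of 0.649 and 0.400 from limma, with log2 differences of -0.12 (standard error 0.152) and -0.091 (standard error 0.0637).

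Lysosomal hydrolases other than cathepsins were tested next. Of 32 hydrolases and activator proteins listed, 31 were tested, of which 9 fell and 1 rose by limma, and 21 did not pass, beside 7.97% lower and 7.06% higher over all genes tested. The median log2 fold change was -0.13, beside 0.004 over all genes tested. Arsa, arylsulfatase A, fell, and its log2 fold change was -0.28 (limma adjusted p = 0.0224, and 0.0707 with the replicate block). Gm2a, an activator protein of ganglioside breakdown, went the other way, from 25.8 ± 1.58 to 47.5 ± 1.18 FPKM (SD, n = 3 each), with a log2 fold change of 0.88 ± 0.0585 (SE), for which limma gave an adjusted p = 2.13e-04. Arsa did not pass without replicate 2 or 3 of either group. Without MinusDox replicate 3 or PlusDox replicate 2, 5 hydrolases fell and 1 rose.

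Genes of the lysosomal membrane were tested in the same fit. Of 25 genes of the membrane and of the proton pump, all tested, 9 fell, 2 rose and 14 did not pass, against the same shares over all genes, with a median log2 fold change of -0.13. Npc1, which exports cholesterol from lysosomes, fell from 31.8 ± 0.396 to 20.4 ± 0.831 FPKM (SD, n = 3 each), a log2 fold change of -0.64 ± 0.0529 (SE), for which limma gave an adjusted p = 5.45e-04. Ostm1, a partner of the chloride exchanger Clcn7, had a log2 fold change of -0.46 and the tetraspanin Cd63 one of -0.40 (adjusted p = 0.00109 and 0.00461 from limma). Ctns, the cystine exporter, and Atp6v1f, a proton pump subunit, rose, with log2 fold changes of 0.39 and 0.34 (adjusted p = 0.0142 and 0.00904 from limma). Ctns did not pass without the second PlusDox library. Without MinusDox replicate 2 or 3, 4 of these genes fell and 2 rose, without the first PlusDox library 3 fell and 2 rose, and without the second PlusDox library 4 fell and 1 rose. In limma without the variance trend, 3 fell and 2 rose.

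Of 13 genes that sort lysosomal enzymes or regulate lysosomal transcription, 1 fell, 1 rose and 11 did not pass, with a median log2 fold change of -0.012. This share is near the 15.0% called over all genes tested, so it sets nothing apart about the list. The genes that passed were Igf2r and M6pr, receptors that carry newly made hydrolases to lysosomes. Igf2r, the cation-independent mannose-6-phosphate receptor, fell from 76.6 ± 1.45 to 58.4 ± 0.883 FPKM (SD, n = 3 each), a log2 fold change of -0.39 ± 0.0373 (SE), for which limma gave an adjusted p = 8.70e-04. M6pr, the cation-dependent receptor, rose from 106 ± 2.10 to 119 ± 2.83 FPKM (SD, n = 3 each), a log2 fold change of 0.16 ± 0.0357 (SE), for which limma gave an adjusted p = 0.0255. The adjusted p of M6pr was 0.0736 with the replicate block, and it did not pass in 7 of 14 alternatives, among them those without MinusDox replicate 1, 2 or 3 and PlusDox replicate 2 or 3. The transcription factors Tfeb, Tfe3 and Mitf, which switch on lysosomal genes, had log2 differences of -0.15, 0.098 and 0.19 (standard errors 0.0989, 0.0611 and 0.0817, adjusted p = 0.383, 0.344 and 0.187 from limma).

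**Figure D4:**
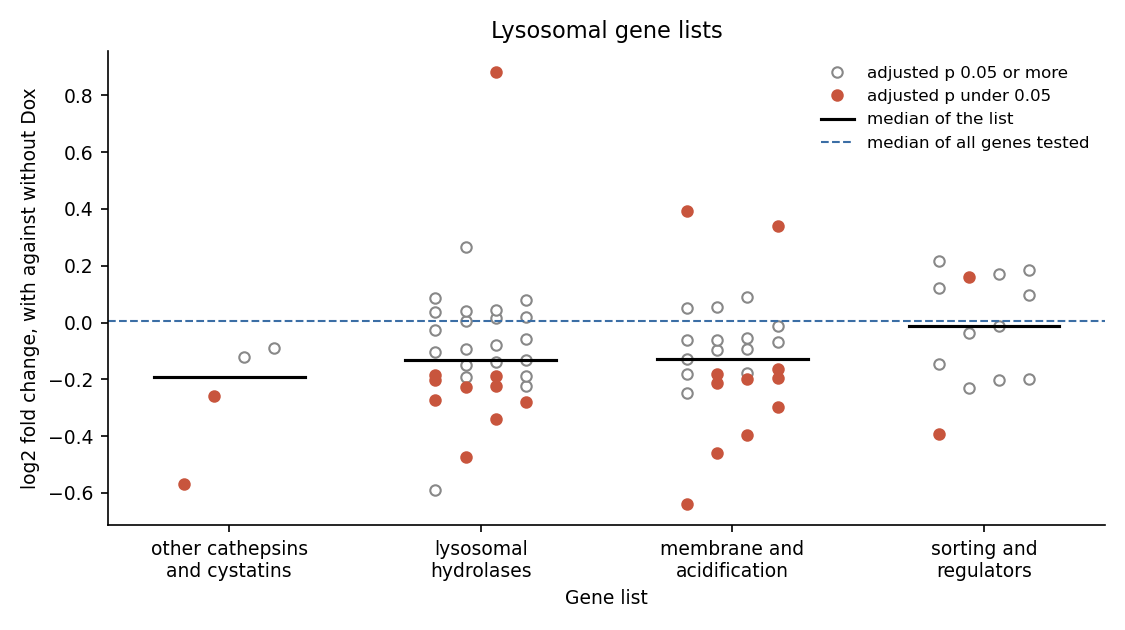
Log2 fold change with against without Dox of each tested gene in 4 lists of relatives and lysosomal genes, filled where the limma adjusted p was under 0.05, with the list medians in black and the median of all tested genes (0.004) dashed. Most filled points of the hydrolase and the membrane list lie below 0 (9 of 10 and 9 of 11), and Gm2a stands apart at 0.88.

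The promoters were searched for CACGTG, the core of the motif that TFEB, TFE3 and MITF bind, and for CAGGTG or CACCTG, the E-box form that ZEB1 and ZEB2 bind, on both strands. The windows run from 250 bases before to 50 bases after each gene start (RefSeq, GRCm38.p6), and 7 of the 10 genes had one. These starts differ from the gene ends printed above. The stretches shown for Ctsa and Ctsl and 1 of those for Ctsd lie within those ends, as does most of the Cst3 window. CACGTG occurred in the windows of Ctsd and Ctsl and in 1 of the 2 windows of Ctsa, and in 7.15% of all 32851 windows of this length. The stretches that hold it are shown with the motif in capitals, read 5′ to 3′ on the strand of the gene.
Ctsd (chr7:142387908-142387937, minus strand): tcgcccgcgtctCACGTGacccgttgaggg
Ctsd (chr7:142388055-142388077, minus strand): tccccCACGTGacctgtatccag
Ctsa (chr2:164833749-164833795, plus strand): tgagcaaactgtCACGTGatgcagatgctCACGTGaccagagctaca
Ctsl (chr13:64370739-64370768, minus strand): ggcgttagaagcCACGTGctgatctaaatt
Ctsd and Ctsa each hold 2 copies, those of Ctsa in 1 of its 2 windows, and Ctsl holds 1. The part of this motif in the differences with Dox was not tested. Genes with a window and this motif numbered 6 of 25 among the hydrolases and 7 of 20 among the membrane genes. Among the sorting genes and regulators they numbered 4 of 11, and over the 27025 genes with a window they made up 8.09%. That background was not limited to tested genes, whereas 24 of the 25 hydrolases and all genes of the other lists with a window were tested. The share among tested genes was not computed.

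CAGGTG or CACCTG occurred in 20.2% of all windows and, among the genes described here, in those of Ctsa. It occurred in 5 of 25 hydrolase genes, 7 of 20 membrane genes and 4 of 11 sorting genes and regulators. Over all genes with a window, again not limited to tested genes, the share was 22.6%. The window of Cst3 held neither motif. A match is a run of letters and not a shown binding site, and a window without one says nothing of sites farther away.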

How the data were processed

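Bulk mRNA of the 6 samples was sequenced as single reads from TruSeq Stranded RNA libraries. The authors mapped the reads with gSNAP, estimated FPKM per gene with Cufflinks and deposited one FPKM table. The submitters' processing notes name GRCm38.p6, the study's methods also name an FVB genome, and tool versions are not given in the sources used here. The deposited group means, fold changes, p-values and q-values were not used.

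Of 43611 rows, 63 repeats of a gene identifier were dropped in favour of the one with the largest mean, and the placeholder 999999999, in 6 cells of 4 genes, was treated as missing. The 12879 genes averaging 1 FPKM or more were transformed to log2(FPKM + 0.1) and fitted by limma 3.58.1 (R 4.3.3) (group only, eBayes with trend), with Benjamini-Hochberg adjustment over all of them and a threshold of 0.05. Permuting 3 against 3 libraries gives no p under this threshold, so limma alone was used. The fit was tested on simulated data. Depth was estimated from the steps of FPKM times length in genes with 1 annotated transcript, and approximate reads are FPKM times transcript length divided by that step. Shared sequence was found with BLAST 2.17.0 (95% identity, at least 50 bases, both strands). Sums, ratios and figures were made in Python 3.11.15 (pandas 2.3.3, matplotlib 3.10.9).

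The genes and lists were chosen with earlier results of these data known. The genes named are all 10 members, the relatives above the minimum, the genes of each lysosomal list that passed (where over 6 passed, the 3 largest rises and falls), Tfeb, Tfe3 and Mitf, and the 3 genes nearest in pattern to Cst3 and to Ctsd, the member protease with the highest mean. Some results that this rule names are not reported here.

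Replicate numbers are shared by the groups. Deviations from the group means of same-numbered libraries had correlations of 0.0287, 0.0359 and -0.00759 across genes, so the numbers were not taken to pair the libraries. Alternatives were a pseudocount of 1 or 0.01, no minimum or one of 5 FPKM, scaling of the libraries by quantiles or by their median, no variance trend, the replicate block and the omission of each library.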

Additional observations from a re-analysis of the deposited data

How the results depend on the processing

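The number of the 9 fitted cathepsin and cystatin genes that passed was 4. It became 1 without the variance trend and 2 with the replicate block, and it ranged from 1 to 4 when a library was left out. It was 3 with a minimum of 5 FPKM, which Cst3 does not reach, and 5 with quantile normalization. Cst3 was chosen by its decrease in this contrast, so nothing is read from these counts. The number among the other cathepsins and cystatins was 2 of 4 tested, beside 15.0% called over all genes tested. It became 1 of 15 tested with no minimum and 1 of 3 with a minimum of 5 FPKM. It was 1 of 4 with the replicate block and when any library was left out. Tpp1 was the gene that remained. The number among lysosomal membrane genes was 11 and became 5 without the trend. The number among sorting genes and regulators was 2 and became 1 without the trend and with the replicate block. When a library was left out, the numbers ranged from 1048 to 1359 over all genes, from 6 to 7 among hydrolases, from 5 to 8 among membrane genes and from 1 to 2 among sorting genes and regulators. These fits have fewer libraries, and for the other settings the cause was not tested. The replicate block gave 1337 calls over all genes. The small correlations of same-numbered libraries cannot show that the samples were unpaired, so a call lost under the block is given as a limit. The ratio of cystatins to cysteine cathepsins with Dox was 1.04 times that without, 1.04 times after quantile normalization and 1.02 to 1.06 times when a library was left out, and without MinusDox replicate 2 the groups no longer overlapped. Depth limits Cst3, with about 10 to 18 reads in each PlusDox library, and Ctss.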
